A study of Mus musculus with 6 samples.

Results

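The genes described here are 10 transcripts that the tumour suppressor p53 or general cell stress raises: Cdkn1a, Mdm2, Gadd45a, Phlda3, Pmaip1, Gdf15, Ccng1, Bax, Bbc3 and Trp53inp1. They were chosen by symbol, through the RefSeq accession printed beside each probe, and each probe was kept apart. All 10 were found among the 19752 genes named on the array, on 12 of its 55681 probes, and 11 of the 12 probes were bright enough to be tested. Liver RNA was compared on 6 Agilent 2-colour mouse arrays. The Fra-1hep mice overexpress Fra-1, a subunit of the AP-1 transcription factor encoded by Fosl1, in hepatocytes. The construct and promoter that drive Fra-1 are not given in the sources used here. The reference RNA was pooled from the livers of 5 wild-type mice on chow diet. All animals were of the C57BL/6J strain, 26 to 28 weeks old and untreated, and all RNA passed an integrity score of 7.8. On 5 arrays a single Fra-1hep mouse (Cy5) was set against the wild-type pool (Cy3). The remaining array was dye-swapped: Fra-1hep mice were pooled and labelled with Cy3, and Cy5 labelled the wild-type RNA. Mice 1 and 2 shared a slide, as did mice 3 and 4 and the dye-swapped array, and mouse 5 lay on another.

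p53 is a transcription factor that is kept scarce by the ubiquitin ligase Mdm2 and is stabilised by DNA damage and other stress. It then raises genes that stop the cell cycle, trigger apoptosis through the BCL2 family, repair DNA, or feed back on p53 itself. In liver it is known for restraining hepatocyte proliferation. Several of its targets, such as Gdf15 and Gadd45a, are also raised without p53, for example through ATF4 in the integrated stress response. These arrays measured mRNA only, so neither p53 protein nor its activity was measured.

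Of the 10 genes, 4 were lower in Fra-1hep liver, 0 were higher (5.51% of all tested probes were) and 6 did not pass the test. The growth factor-like Gdf15 fell 2.18-fold, the growth arrest gene Gadd45a 1.53-fold, the AKT inhibitor Phlda3 1.41-fold and the proapoptotic Pmaip1 (Noxa) 1.38-fold. The most widely used p53 readouts did not pass: Cdkn1a (p21) had a fitted log2 ratio of 0.06 and Mdm2 of 0.02. Cdkn1a was the most variable of the 10, at 0.81 and 0.74 in mice 2 and 3 and -0.43 to -0.33 in the other mice. Values are log2 ratios of Fra-1hep over wild type, and the fitted value gives the mouse arrays and the dye-swapped array equal weight to remove the dye effect. A gene counts as changed at an adjusted p under 0.05 in limma, with Benjamini-Hochberg adjustment over the 30073 probes tested. By this rule 4 of the 11 tested probes (36.4%) were called, against 11.5% of all probes called in either direction and 6.04% called lower. The median fitted value of the 11 probes was -0.19, beside 0.0074 over all tested probes.

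Some properties of the arrays bear on every value. The arrays of mice 2 and 3 differed by about as much as replicate spots do (1.06 times that noise, against 1.86 to 2.35 times for the 9 other pairs). They were averaged and counted as 1 sample, leaving n = 4 Fra-1hep samples. The single value of the Fra-1hep pool has no replicate, and how many mice it holds is not given. The wild-type pool is 1 sample, so the tests leave out the spread between wild-type animals. The only Fosl1 probe rose clear of background in neither RNA on any array (0 of 6), so the overexpressed gene does not check the labels. All 10 hepatocyte markers examined were well above background in both RNAs on every array. Markers of other cells moved too. Of 9 tested neutrophil markers 8 were higher and 1 was lower, and their summed signal was 16600 to 64700 in Fra-1hep and 9080 to 9610 in wild-type RNA. Of 9 macrophage markers 8 were lower, with sums of 40300 to 67800 and 81100 to 93100. Of 9 endothelial markers 7 were lower, and of 8 tested T and NK cell markers 6 were lower. In whole liver, fewer cells of a type and less RNA per cell cannot be told apart.

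**Figure D1:**
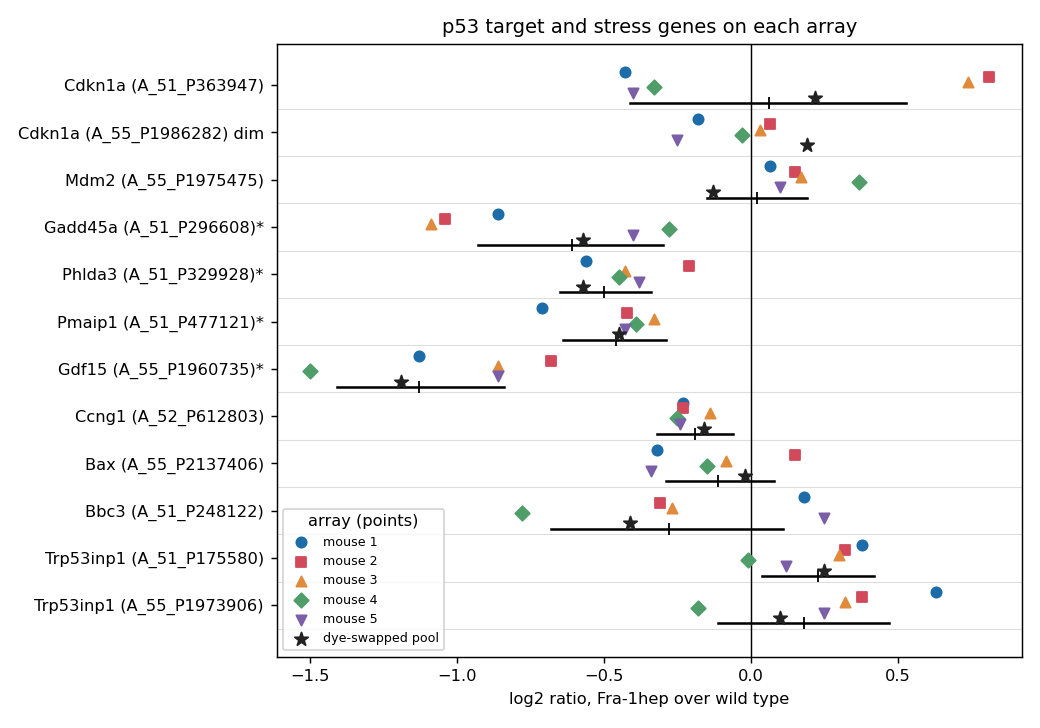
Log2 ratio of Fra-1hep over wild type (x axis) for the 12 probes of the 10 genes (y axis), with 1 point per array. Black bars are the fitted value with its 95% confidence interval, an asterisk marks an adjusted p under 0.05, and "dim" marks the probe below background. Gdf15, Gadd45a, Phlda3 and Pmaip1 lie below 0 on all 6 arrays, and Cdkn1a is split between mice 2 and 3 and the rest.

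To show where the letters that p53 recognises lie in these genes, the RefSeq promoters (GRCm38.p6, 250 bases before to 50 after each start) were searched. The table held 12 promoters of 8 of the 10 genes, and none for Pmaip1 and Trp53inp1. The p53 decamer, the palindromic unit that p53 binds in pairs, was present without mismatch in 5 of these 12 promoters (41.7%), against 8.36% of all 32851 promoters. A full site was taken as a pair of decamers at most 13 bases apart with at most 3 mismatches in all and the CNNG core (A or T at each N) intact. It was found in 3 promoters (25.0%), of Cdkn1a, Bax and Bbc3, against 6.72% of all. The 10 genes were chosen as p53 or stress targets, so a share above that of all promoters is no result of these arrays. The 12 promoters are also not independent, as 3 are of Bbc3 and some of those overlap. Both patterns read the same on either strand, and full sites can overlap each other and the decamers. The full site of Cdkn1a that has no spacer is shown with the decamers of Gadd45a, which fell, and of Mdm2, Ccng1 and Bax, which did not pass. Capitals mark the match, and 3 flanking bases on each side are in lower case, all in the direction of the gene.
Cdkn1a, full site: cagGAACATGTCTTGACATGTTCagc
Gadd45a, decamer: tgaGGGCTAGCCCcat
Mdm2, decamer: tagGAACTTGCCTagc
Ccng1, decamer: cccGGGCAAGCCTtgg
Bax, decamer: cccAGGCAAGCTTtga

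The Cdkn1a site lies at chr17:29090928-29090947 on the plus strand, from -51 to -32 relative to the start, in the more upstream of its 2 promoters. It has no spacer and 1 mismatch. It overlaps a second full site that starts at -73, with 0 mismatches and a spacer of 12 bases. The more downstream Cdkn1a promoter held neither pattern. The Gadd45a decamer (chr6:67037438-67037447, minus strand) lies from -40 to -31. The decamers of Mdm2 (chr10:117710935-117710944), Ccng1 (chr11:40755462-40755471) and Bax (chr7:45467090-45467099), all on the minus strand, start at -186, -185 and -201. Neither pattern was found in the windows of Gdf15 and Phlda3, which says only that these letters are not in those windows. The elements TGATGNAA (bound by ATF4 with C/EBP factors), TGANTCA (AP-1) and TGACGTCA (CRE) were searched on both strands and found in 0 of the 12 promoters. They occur in 3.97%, 7.81% and 1.79% of all promoters. A match is a description of the sequence, and binding was not measured.

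Gdf15 encodes a secreted stress hormone of the TGFβ family that liver and other tissues release and that lowers appetite through a receptor in the brainstem. Its log2 ratio was -1.13 in mouse 1, -0.68 in mouse 2, -0.86 in mouse 3, -1.50 in mouse 4, -0.86 in mouse 5 and -1.19 on the dye-swapped array. Every array was below 0, and mouse 4 was the lowest. The fitted value was -1.13 (SE 0.12, n = 4, adjusted p = 0.00127), and only 0.406% of tested probes had a lower one. The wild-type level, from the same pool on each array, stayed between 9.12 and 9.38 (normalised log2 signal) on the mouse arrays. The Fra-1hep level ran from 7.72 to 8.52, so the 2 RNAs did not overlap. Gdf15 passed under all 19 alternative settings, with fitted values from -1.34 to -1.03.

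Gadd45a encodes a small stress-induced protein that binds cyclin-dependent kinase 1 and PCNA and activates p38 signalling. It gave log2 ratios of -0.86, -1.04, -1.09, -0.28 and -0.40 in mice 1 to 5 and -0.57 on the dye-swapped array. All arrays were below 0, with mice 1, 2 and 3 well below mice 4 and 5. The fitted value was -0.61 (SE 0.14, adjusted p = 0.0257), and the SD over the 4 samples (0.37) was larger than that of 97.4% of tested probes. Macrophage markers were likewise lower in mice 1 to 3 than in mice 4 and 5, though in another order within mice 1 to 3. Their mean log2 ratios were -1.08, -1.0 and -1.03 in mice 1 to 3, -0.43 and -0.46 in mice 4 and 5, and -0.60 on the dye-swapped array. The part of macrophages in the Gadd45a value was not tested. The call was lost under 6 of 19 alternatives, with adjusted p from 0.0502 to 0.105 in those, while the direction held in all. The probe's signal was 4.48 to 7.68 times local background in Fra-1hep and 7.20 to 13.4 times in wild-type RNA.

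Both paralogs of Gadd45a were measured. Gadd45b fell by 0.29 on the log2 scale (SE 0.08, adjusted p = 0.0443), a call that held without mouse 3 but not without mouse 1, 2, 4 or 5 (adjusted p up to 0.0773). It was lost under 11 of 19 alternatives in all. Gadd45g, chosen after its values were seen, stood at 1.68 in mouse 4 and -0.77 to -0.16 in the other mice, and did not pass (0.25, SE 0.39, adjusted p = 0.745). Whether the members of this family differ from each other was not tested.

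Phlda3, whose protein blocks the membrane binding of the survival kinase AKT, was the most even of the genes that fell. Its log2 ratios were -0.56, -0.21, -0.43, -0.45 and -0.38 in mice 1 to 5 and -0.57 on the dye-swapped array. The fitted value was -0.50 (SE 0.07, adjusted p = 0.00285). The Fra-1hep level stayed within 8.14 to 8.28 on the mouse arrays and the wild-type level within 8.49 to 8.70. It passed under all 19 alternatives (-0.63 to -0.41). Phlda1, a paralog chosen after its values were seen, was at -1.71, -1.80, -1.74 and -1.28 in mice 1, 2, 3 and 5 but at 1.51 in mouse 4. With this spread it did not pass (-0.38, SE 0.53, adjusted p = 0.723), and without mouse 4 it did (-0.76, adjusted p = 0.00437).

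**Figure D2:**
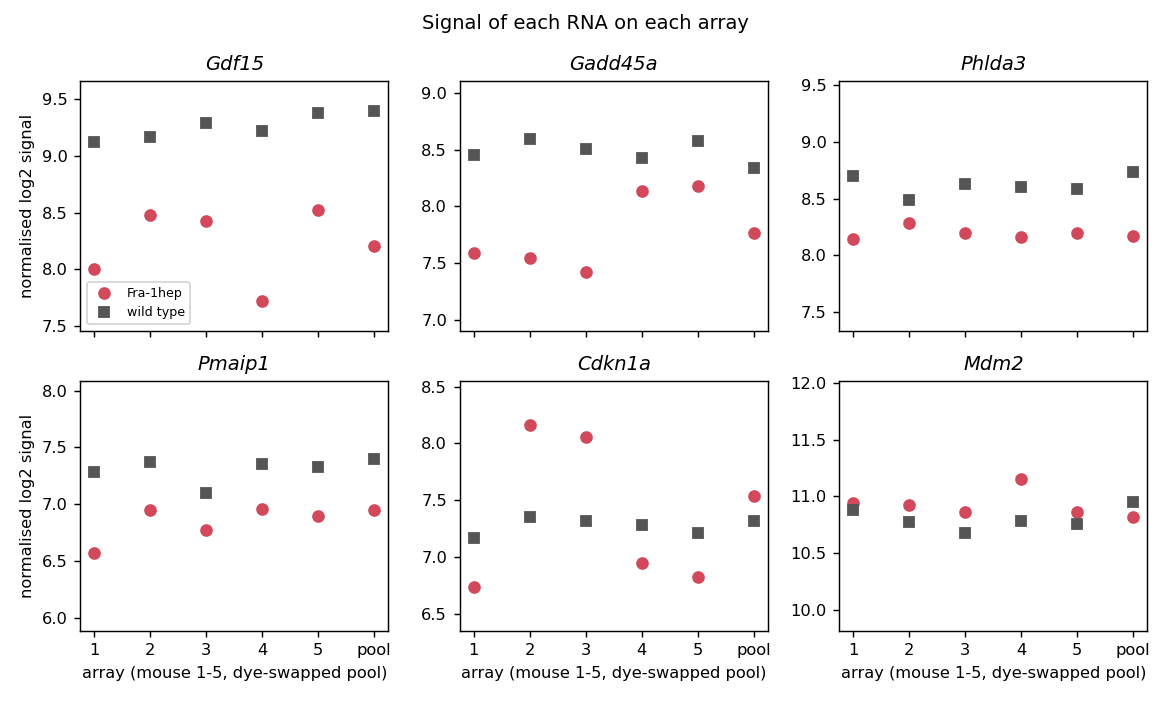
Normalised log2 signal (y axis) of the Fra-1hep RNA (circles) and of the wild-type pool (squares) on each array (x axis) for 6 of the genes; all panels span the same number of log2 units. Wild-type squares vary little because they are the same pool, and the Fra-1hep circles of Cdkn1a lie above them in mice 2 and 3 and in the Fra-1hep pool but below them in mice 1, 4 and 5.

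Pmaip1 encodes Noxa, a BH3-only protein that neutralises the survival factor MCL1. It measured -0.71, -0.42, -0.33, -0.39 and -0.43 in mice 1 to 5 and -0.45 on the dye-swapped array. Mouse 1 was lowest and the other arrays lay close together. The fitted value was -0.46 (SE 0.08, adjusted p = 0.00743). This probe was dim, at 1.98 to 3.92 times background in Fra-1hep RNA, and its value depended on how background was treated. With Agilent's processed signals or the authors' series table it was -0.95 and did not pass (adjusted p = 0.0647), and with a smaller normexp offset it was -0.68 (adjusted p = 0.0186).

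The other apoptosis genes gave no call. Bax, whose protein permeabilises the mitochondrial outer membrane, measured -0.32, 0.15, -0.08, -0.15 and -0.34 in mice 1 to 5 and -0.02 on the dye-swapped array. Its fitted value was -0.11 (95% confidence interval -0.29 to 0.08, adjusted p = 0.465). Bbc3, encoding the BH3-only protein PUMA, went both ways: 0.18 and 0.25 in mice 1 and 5, -0.31, -0.27 and -0.78 in mice 2, 3 and 4, and -0.41 on the dye-swapped array. Its fitted value was -0.28 (interval -0.68 to 0.11, adjusted p = 0.354). It was -0.18 without mouse 4 and -0.47 with slide as a fixed block (adjusted p = 0.0848). The slide-block value rests only on the slide with both dye orientations, that of mice 3 and 4 and the dye-swapped array. Bbc3 passed under 0 of 19 alternatives. Its spread over the samples (SD 0.48) exceeded that of 98.7% of tested probes. The wild-type level ranged over 0.21, but it comes from the same pool on each array, so spread between wild-type animals was not measured.

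Cdkn1a encodes p21, the inhibitor of cyclin-dependent kinases through which p53 arrests the cell cycle. Its main probe (A_51_P363947) is printed in 10 spots per array, so its error within an array is known. The signal of this probe was 2.32 to 8.21 times local background in Fra-1hep and 3.28 to 5.76 times in wild-type RNA. The mean over spots was -0.43 (SD 0.17) in mouse 1, 0.81 (SD 0.15) in mouse 2 and 0.74 (SD 0.07) in mouse 3. It was -0.33 (SD 0.08, 9 spots) in mouse 4, -0.40 (SD 0.12) in mouse 5 and 0.22 (SD 0.09, 8 spots) on the dye-swapped array, where outlier spots were left out. No spot of mice 2 and 3 was below 0.60, and no spot of mice 1, 4 and 5 was above -0.17. The wild-type level, from the same pool on each array, ranged over 0.18 on the mouse arrays, and the Fra-1hep level over 1.42.

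The difference between the arrays of Cdkn1a was therefore much larger than the error of its spots. As the arrays of mice 2 and 3 differ only by spot noise, the high value counts as 1 sample of 4. The fitted value was 0.06 (SE 0.21, interval -0.41 to 0.53, adjusted p = 0.891), and its SD over samples (0.58) exceeded that of 99.2% of tested probes. Without mice 2 and 3 the fitted value was -0.08 (adjusted p = 0.513). That fit still gave the dye-swapped array (0.22) as much weight as mice 1, 4 and 5 together (-0.43 to -0.33). Whether the Fra-1hep pool holds RNA of mice 2 and 3 is not given. The second Cdkn1a probe (A_55_P1986282, accession NM_001111099) stood clear of background in neither RNA on any array (0 of 6), so it gives no fold change.

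**Figure D3:**
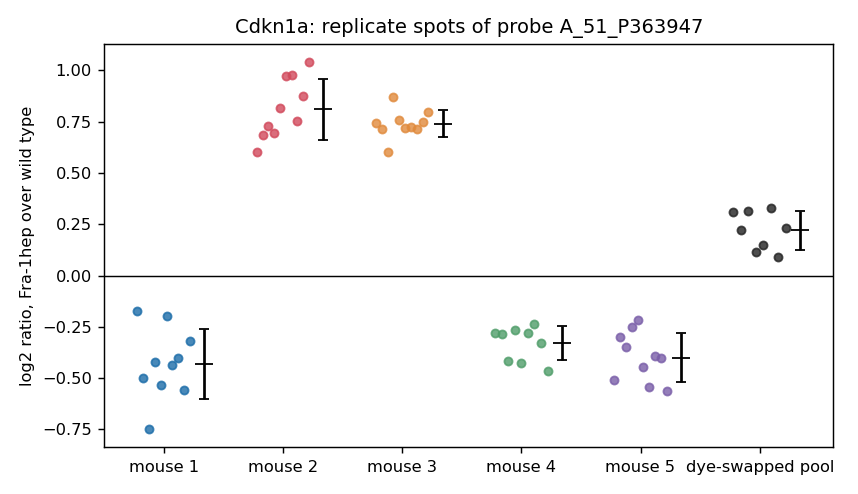
Log2 ratio of each replicate spot of the main Cdkn1a probe (y axis) on the 6 arrays (x axis), with the mean and SD of the spots beside them. Spots of mice 2 and 3 run from 0.60 to 1.04, those of mice 1, 4 and 5 from -0.75 to -0.17, and those of the dye-swapped pool from 0.09 to 0.33.

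Mice 2 and 3 were both above the other 3 mice for 3 of the 10 genes described here (Cdkn1a, Ccng1 and Bax) and for 8 of 25 other p53 targets, against 15.3% of all tested probes. They were both below for 1 of the 10 (Gadd45a) and for 5 of the 25, against 15.4% of all tested probes. Among regulators of p53 they were both above for 2 of 13 genes and both below for 1. Among paralogs and other CDK inhibitors these counts were 2 and 3 of 10, and in the BCL2 family 1 and 2 of 10. The cell cycle and integrated stress response lists follow below. As mice 2 and 3 count as 1 sample, each count gives the rank of 1 sample among 4. For Ccng1 the 4 samples spanned only 0.066.

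Ccng1 encodes cyclin G1, which recruits a phosphatase to Mdm2. It was the most even gene of the 10, at -0.23, -0.23, -0.14, -0.25 and -0.24 in mice 1 to 5 and -0.16 on the dye-swapped array. All 6 arrays were below 0, as they were for 12.2% of tested probes. The fitted value was -0.19 (SE 0.06, adjusted p = 0.0691), just short of the threshold. Ccng1 passed with the mouse arrays alone (-0.23, adjusted p = 0.0147), where genotype and dye cannot be separated. It passed under none of the other 18 alternatives.

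Mdm2, the ubiquitin ligase that degrades p53 and is itself a p53 target, was bright (42.4 to 76.1 times background) and near 0. It measured 0.06, 0.15, 0.17, 0.37 and 0.10 in mice 1 to 5 and -0.13 on the dye-swapped array. The mouse arrays were above 0 and the dye-swapped array below, so that the fit put most of the value into the dye term (0.15). The fitted genotype value was 0.02, with an interval from -0.15 to 0.19 (adjusted p = 0.891).

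Trp53inp1, whose protein takes part in autophagy and in p53-dependent apoptosis, was the only gene of the 10 with both probes tested. The brighter probe measured 0.38, 0.32, 0.30, -0.01 and 0.12 in mice 1 to 5 and 0.25 on the dye-swapped array. The other gave 0.63, 0.38, 0.32, -0.18 and 0.25, and 0.10 on the dye-swapped array. In both probes mouse 4 was the lowest and mouse 1 the highest. Neither passed (0.23, SE 0.08, adjusted p = 0.129, and 0.18, SE 0.13, adjusted p = 0.433). With median centring in place of loess the brighter probe did (0.36, adjusted p = 0.0374).

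The other genes of the pathway were counted by their brightest probe, where 11.6% of all 26011 genes and unnamed transcripts were called. Of 13 regulators of p53, 1 rose, 1 fell and 11 did not pass. Trp53 itself did not pass (-0.10, SE 0.06, adjusted p = 0.367), nor did Mdm4, the inhibitory partner of Mdm2 (0.08, SE 0.06, adjusted p = 0.465). Both passed with the mouse arrays alone (-0.20, adjusted p = 0.034, and 0.21, adjusted p = 0.0273). There genotype and dye cannot be separated, and on the dye-swapped array Trp53 and Mdm4 stood at -0.0026 and -0.05. The other Mdm4 probe went both ways in the single mice, from -0.19 to 0.07. That probe stood at 0.20 on the dye-swapped array and did not pass (0.07, SE 0.06, adjusted p = 0.564). The damage kinase gene Atr rose evenly, with 0.22 to 0.33 on the 6 arrays (fitted 0.30, SE 0.06, adjusted p = 0.0132). Hipk2, a kinase that phosphorylates p53, fell by 0.30 (SE 0.07, adjusted p = 0.0366) and by 0.33 on its other probe. The call on its brightest probe was lost under 7 of 19 alternatives, among them without mouse 1 (adjusted p = 0.0572) or mouse 4 (0.0508).

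Of 30 further p53 targets 25 were tested, and 3 rose, 2 fell and 20 did not pass, with a median of 0.03. The peptide transporter gene Tap1 fell on all arrays (-0.49, SE 0.07, adjusted p = 0.00395). Tap1 is also an interferon-induced gene. Dcxr, a carbonyl reductase gene, fell by 0.33 (SE 0.06, adjusted p = 0.0144; lost under 3 of 19 alternatives, at -0.18 with median centring) and the adenylate kinase gene Ak1 rose (0.29, SE 0.06, adjusted p = 0.0243). The remaining calls, which differ in sign between arrays and were named after their values were seen, were the polo-like kinase gene Plk3 and the DNA polymerase gene Polk. Plk3 measured 0.97, 0.88 and 0.89 in mice 2, 3 and 4 but -0.15 and 0.18 in mice 1 and 5, and 0.98 on the dye-swapped array (fitted 0.72, adjusted p = 0.0465). It did not pass under 11 of 19 alternatives. Polk was fitted at 0.41 (adjusted p = 0.0366), a second probe at 0.01 did not pass, and the call was lost under 7 of 19 alternatives. Both calls ended without mouse 4 or mouse 5 (adjusted p of 0.0526 to 0.0643).

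Among 10 tested genes of the BCL2 family outside the 10 described, 3 rose, 0 fell and 7 did not pass, with a median of 0.19. Bmf, a BH3-only gene, was 1.89-fold higher, with log2 ratios of 1.13, 0.82, 0.77, 1.24 and 1.18 in mice 1 to 5 and 0.76 on the dye-swapped array (fitted 0.92, SE 0.09, adjusted p = 0.000665). The survival gene Mcl1 rose (0.40, SE 0.06, adjusted p = 0.0058), with its other probe at 0.24 not passing (adjusted p = 0.127). Bik rose (0.40, SE 0.11, adjusted p = 0.0474) but did not pass under 10 of 19 alternatives. Among these were leaving out mouse 2 or mouse 4 (adjusted p = 0.0558 and 0.0703) and slide as a fixed block (0.34, adjusted p = 0.0999). The slide-block value again rests on mice 3 and 4 and the dye-swapped array only. Pmaip1 fell while Bmf rose, and both encode BH3-only proteins.

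Of 10 tested paralogs and other CDK inhibitors, Cdkn2c rose, Gadd45b fell as given above, and 8 did not pass. Cdkn2c encodes p18, an inhibitor of CDK4 and CDK6. It was above 0 on every array, from 0.41 to 0.87 (fitted 0.65, SE 0.09, adjusted p = 0.00253). Of 12 tested cell cycle genes that p21 lowers through the DREAM complex, 2 fell, 0 rose and 10 did not pass, with a median of -0.10. Those that fell were the replication helicase gene Mcm5 (-0.54, SE 0.09, adjusted p = 0.0063) and the mitotic activator Cdc20 (-0.32, SE 0.07, adjusted p = 0.0225). Mcm2 of the same list, named after its values were seen, went the other way without passing (0.42, SE 0.11, adjusted p = 0.0508). Mcm5 passed under all 19 alternatives. Cdc20 did not under 4 of them, among them slide as a fixed block (-0.25, adjusted p = 0.0858) and median centring (adjusted p = 0.0958). Here too the slide-block value rests on mice 3 and 4 and the dye-swapped array only. Mice 2 and 3 were both above the other mice for 7 of these 12 genes and both below for 0, against 15.3% and 15.4% of all tested probes.

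In the integrated stress response, 3 of 17 tested genes rose, 1 fell and 13 did not pass. Asparagine synthetase, Asns, was 42.9-fold higher, while the stress factor Atf3 fell by 0.51 (SE 0.09, adjusted p = 0.00755). The lipoprotein receptor gene Vldlr was 3.62-fold higher on its brightest probe, with log2 ratios of 0.92 to 2.42 in the single mice. Its other probe was 1.91-fold higher (adjusted p = 0.0138). Eif4ebp1, a translation repressor, rose (0.40, SE 0.07, adjusted p = 0.00911). Atr, Atf3 and Eif4ebp1 each lost the call under 2 of 19 alternatives, Agilent's processed signals and the authors' series table. Mice 2 and 3 were both above the other mice for 7 of the 17 genes and both below for 3, against 15.3% and 15.4% of all tested probes. The central factors Atf4 (0.17, adjusted p = 0.401) and Ddit3 (0.02, adjusted p = 0.914) did not pass, nor did Trib3 (-0.17, adjusted p = 0.462). Gdf15, an ATF4 target as well as a p53 target, thus fell in the same livers in which Asns rose on every array.

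**Figure D4:**
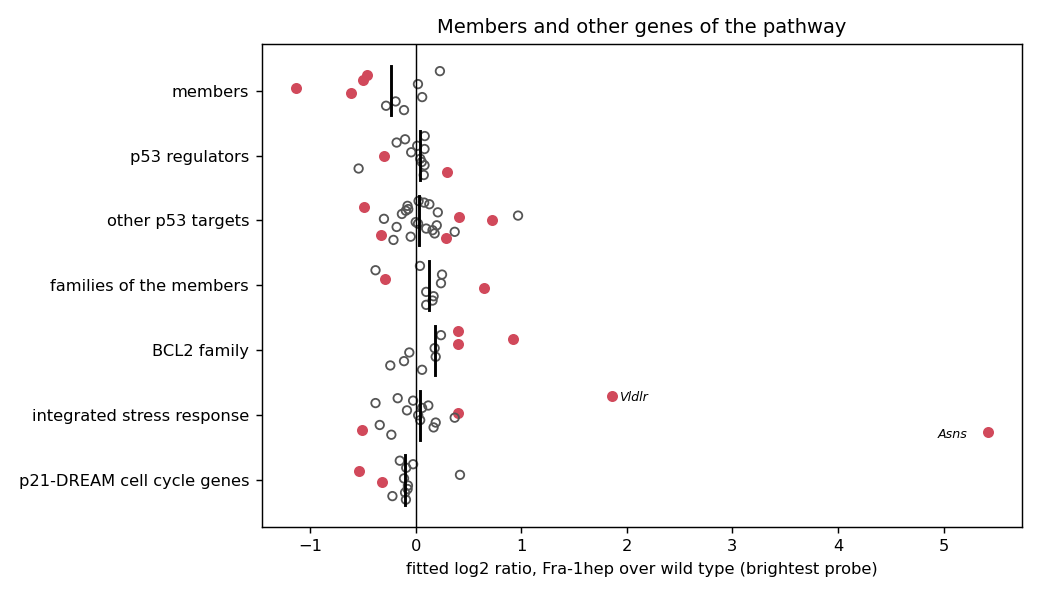
Fitted log2 ratio (x axis) of the tested genes of each list by their brightest probe (y axis); filled points have an adjusted p under 0.05 and black bars are list medians. The 10 genes described here ("members") have 4 filled points, all below 0, and a median of -0.24; vertical position within a list has no meaning.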

How the data were processed

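Scans were quantified by the authors in Agilent Feature Extraction, version 10.7.3.1 per the file headers (10.7 according to the submitters' processing notes). For each spot the deposited files give median spot and background intensity per channel without normalization, processed signals, and their ratio in log10 units, per the file headers. The series table deposited by the authors is in log2 ratios. Most of its values equalled the scanner files turned to Fra-1hep over wild type (median absolute difference at most 4.35e-07), but some differed, with correlations of 0.9679 to 0.9987. Its columns are not centred, with medians from -0.18 to 0.06.

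Median signals were background-corrected with normexp (offset 50) and normalised by loess within each array in limma 3.58.1 (R 4.3.3), with control and outlier spots at weight 0, and spots of a probe were averaged. The offset pulls dim ratios towards 0. A probe was tested if well above background in Fra-1hep RNA on 3 of 5 mouse arrays or in wild-type RNA on 3 of 6. This kept 30110 probes, of which 37 were left out for lack of usable spots. Names came from the RefSeq gene list of GRCm38.p6 (26056 probes with 1 symbol), which served for names only, while the arrays name mm9 as their build. Channel levels are loess values after Aquantile scaling. Limma fitted genotype and dye (3 residual and 5.16 prior degrees of freedom), two-sided, so p-values measure the spread between these samples only. The labels name 5 single mice, which were followed. Alternatives changed the normalization, background, filter, variance model, slide block, dye-swapped array and mice. Simulated data had 30073 probes, with only 50 changed at each size and with noise drawn independently for each probe. The fit recovered 2% of changes of 0.25, 58% of changes of 0.5 (log2) and 92% of changes of 1, with 0 false calls. In the real data 3471 probes were called, so these shares need not hold there. Named genes were the 10 genes, Trp53, Mdm4, and up to 4 called genes per list with 1 sign on all arrays. The genes, lists and averaging of mice 2 and 3 were chosen with earlier results of these data known. A result for 1 further listed gene is not reported here.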

Additional observations from a re-analysis of the deposited data

Results flagged for a closer look

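Among 33 probes of the genes named, 2 had a Fra-1hep sample far from the other 3 by Dixon's criterion, which chance alone meets in about 1 of 20 groups. Mice 2 and 3, counted as 1 sample, stood apart for Cdkn1a, at 0.78 against -0.43 to -0.33. Mouse 4 stood apart for Phlda1, at 1.51 against -1.77 to -1.28. Phlda1 was named after its values were seen, so its flag cannot be set against the chance rate.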

How the results depend on the processing

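Of 11 tested probes of the 10 genes, 4 were called in the analysis given, and 3 to 5 under all alternatives except Agilent's processed signals and the authors' series table, which left 2 each (Phlda3 and Gdf15). Those settings also lowered all called probes from 3471 to 1622 and 1624, and the listed pathway genes called from 18 to 8 and 8. The mouse arrays alone gave 7569 probes and 31 listed genes, but there genotype and dye cannot be separated. Median centring turned the split of called probes from 47.7% to 74.3% higher. Leaving out a mouse gave 2904 to 3289 probes and 17 to 19 listed genes. Signs turned, without a call, for Bax with median centring (0.018), Cdkn1a with the mouse arrays alone (-0.10) and without mice 2 and 3 (-0.083, chosen after seeing the data), and, without mouse 4, for Mdm2 (-0.011) and Gadd45g (-0.022). Leaving out each mouse gave -0.011 to 0.041 for Mdm2 and -0.022 to 0.39 for Gadd45g. The cause was not tested. With slide as a fixed block, Gadd45a was at -0.63 (adjusted p = 0.0502), which is also the value within the slide that held both dye orientations. With slide as a random block it passed (-0.66, adjusted p = 0.0152). No paired analysis was possible because all single mice belong to 1 group. Low signal limits Pmaip1 and the second Cdkn1a probe, and the main Cdkn1a probe was not bright either (from 2.32 times background in Fra-1hep RNA).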
